A study of Mus musculus with 11 samples.

Results

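Classical major histocompatibility complex (MHC) class I molecules show peptides from inside a cell to CD8+ T cells. The gene set described here was listed by symbol, with earlier results of these data known, and holds 10 mouse genes. They are the class I light chain B2m, the heavy chains H2-K1, H2-D1 and H2-T23, the peptide transport and loading genes Tap1, Tap2 and Tapbp, the immunoproteasome subunits Psmb8 and Psmb9, and the class I transactivator Nlrc5. All 10 were among the 54513 genes of the count table, and all 10 were among the 19267 that had enough counts to be tested.

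The series measured polyadenylated RNA of colonic epithelial cells that had been enriched on Percoll to remove lymphocytes. Its title names miR-181 in inflammation of the colon. WT mice were set beside double-knockout mice (DKO), in which the clusters miR-181a1-b1 and miR-181a2-b2 are both deleted, at baseline or after dextran sulphate sodium (DSS), a polysaccharide that injures the colonic epithelium, given at 2% for 7 days with 2 days of recovery. The 11 libraries were 2 of baseline WT, 3 of baseline DKO, 3 of DSS WT and 3 of DSS DKO. Whether the deletion in DKO was present in all cells, the age and strain of the mice, and whether animals were pooled, is not stated in the labels. Libraries of a group are labelled as biological replicates, with no statement of separate animals, so that the p-values measure the spread between these libraries.

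In class I presentation the proteasome cuts cytosolic proteins into peptides, and interferon-gamma has cells replace its catalytic subunits by the immunoproteasome subunits. The Tap1-Tap2 transporter carries the peptides into the endoplasmic reticulum, where tapasin, encoded by Tapbp, holds empty class I molecules at the transporter until a peptide binds. The heavy chain reaches the cell surface with B2m and its peptide, and Nlrc5 is an interferon-inducible activator of the promoters of class I genes. In the colon, class I on epithelial cells is seen by intraepithelial lymphocytes, many of which carry CD8.

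The microRNAs deleted in DKO and the places in the class I genes that their seed could pair with are shown first. The 4 copies of miR-181a-5p and miR-181b-5p that the deleted clusters give share a seed, bases 2 to 8, in capitals here. The same seed is found in miR-181c-5p and miR-181d-5p, which lie in a cluster on chromosome 8 that the genotype leaves in place. Other mature strands of these clusters were not examined, and no match to them was searched for. Sequences are from RefSeq on GRCm38.p6. miR-181a comes from chr1:137966468-137966490 and chr2:38852741-38852763 on the plus strand, and miR-181b from chr1:137966650-137966673 and chr2:38853845-38853868.
miR-181a-5p: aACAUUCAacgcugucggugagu
miR-181b-5p: aACAUUCAuugcugucgguggguu

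A 3' UTR was counted if it held TGAATGT, the complement of the seed, or GAATGTA, which drops its first base and ends in A. This held for 2 of the 10 genes (20%), both with TGAATGT. For either spelling it held for 22.1% of all 19925 genes whose annotated 3' UTR holds 100 bases or more. A match of this kind is a description of letters, not a binding site. The 2 genes were H2-K1, where the match starts at base 303 of the 3' UTR, and H2-D1, where it starts at base 302. They are printed with 10 flanking bases before the match, the match and the base after it in capitals.
H2-K1 3' UTR: aataataattTGAATGTAaccttgattg
H2-D1 3' UTR: aataataattTGAATGTGggtggctgga

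The 10 bases before the match are the same in both genes. The other 8 genes, among them Psmb8, Psmb9 and Nlrc5, had no match to this seed.

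Promoter windows, from 250 bases before to 50 after the start, were available for 8 of the 10 genes and not for Tap2 and Nlrc5. They were searched on both strands for the core of the interferon-stimulated response element written from either end, GAAANNGAA or GAANNGAAA, for the gamma-activated site TTCNNNGAA and for the Y box CCAAT. The second spelling of the interferon core was added after the first had been searched. The 4 windows printed here are those of B2m and H2-K1, which hold an interferon core, of Psmb8, which holds the gamma-activated site, and of Tap1, whose window shares 275 bases with that of its divergent neighbour Psmb9. Capitals mark the matches (RefSeq, GRCm38.p6).
B2m promoter, chr2:122147437-122147736, plus strand: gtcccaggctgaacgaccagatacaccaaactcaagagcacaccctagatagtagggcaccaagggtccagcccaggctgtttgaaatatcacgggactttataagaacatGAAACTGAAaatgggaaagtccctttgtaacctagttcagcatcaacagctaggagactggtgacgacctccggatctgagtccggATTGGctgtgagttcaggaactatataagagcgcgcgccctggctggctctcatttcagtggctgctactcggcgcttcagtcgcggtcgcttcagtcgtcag
H2-K1 promoter, chr17:34000284-34000583, minus strand: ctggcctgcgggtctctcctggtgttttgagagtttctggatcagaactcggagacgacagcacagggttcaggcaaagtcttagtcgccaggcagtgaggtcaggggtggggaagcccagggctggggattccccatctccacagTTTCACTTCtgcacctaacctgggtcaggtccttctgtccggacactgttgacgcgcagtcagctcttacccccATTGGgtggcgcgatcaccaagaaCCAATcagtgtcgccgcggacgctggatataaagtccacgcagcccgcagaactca
Psmb8 promoter, chr17:34197945-34198244, plus strand: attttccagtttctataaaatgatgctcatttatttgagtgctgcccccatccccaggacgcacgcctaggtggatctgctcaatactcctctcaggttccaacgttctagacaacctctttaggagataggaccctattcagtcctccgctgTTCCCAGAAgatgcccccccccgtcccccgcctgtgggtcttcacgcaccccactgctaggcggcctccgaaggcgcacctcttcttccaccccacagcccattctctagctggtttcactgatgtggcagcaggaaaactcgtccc
Tap1 promoter, chr17:34187306-34187605, plus strand: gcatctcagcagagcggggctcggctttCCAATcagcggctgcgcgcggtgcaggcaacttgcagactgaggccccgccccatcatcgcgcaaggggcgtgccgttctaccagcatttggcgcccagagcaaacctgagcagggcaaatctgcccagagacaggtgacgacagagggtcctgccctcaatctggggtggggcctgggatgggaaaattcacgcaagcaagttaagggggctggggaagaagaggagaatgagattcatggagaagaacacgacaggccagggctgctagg

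B2m held GAAACTGAA at -139 to -131 from its start and a reverse Y box at -53 to -49. H2-K1 held TTTCACTTC, the reverse complement of the second spelling, at -104 to -96, and a Y box on each strand. H2-D1 and H2-T23 also held an interferon core, at -150 to -142 and at -123 to -115. Thus 4 of the 8 genes held 1 of the cores, beside 14.8% of the 32851 promoters in the table. Psmb8 held TTCCCAGAA at -97 to -89, the only gamma-activated site among the 8 genes, beside 8.3% of all promoters. These positions count from the start used for the RefSeq windows. The windows of Psmb8, H2-D1 and Tapbp lie wholly downstream of the gene starts in GENCODE M21 (34197721, 35262730 and 33915899 on chromosome 17). By that annotation their matches lie within the gene. The Y box was present in 7 of the 8 genes, Psmb8 being the exception, and in 37.4% of all promoters. The matches of Tap1 and Psmb9 are the same 5 bases in the stretch that their windows share.

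By position, 8 of the 10 genes lie on chromosome 17, in or beside the mouse H2 complex, B2m lies on chromosome 2 (122147686 to 122153083) and Nlrc5 on chromosome 8 (94434356 to 94527272), in GENCODE M21 on GRCm38. Psmb9 (34181987 to 34187764, minus strand), Tap1 (34187553 to 34197225), Psmb8 (34197721 to 34201454) and Tap2 (34203527 to 34216321, all plus strand) follow one another. Psmb9 and Tap1 overlap by 212 exonic bases on opposite strands, 15.7% of the exonic bases of Psmb9 and 7.18% of those of Tap1. The library kit and counting are not stated to keep the strand, so that reads in those bases cannot be assigned. Exons of Tapbp, Tap2 and Psmb8 overlap the annotated genes Gm19412 and Gm20496, which had 0 counts in every library. Tap2 also overlaps Gm15821, with 6 to 44 counts per library, and Nlrc5 overlaps 9330175E14Rik, with 2 to 38. Heavy chain genes resemble one another. Of windows of 50 bases, 8.79% of H2-K1, 14.3% of H2-D1 and 28.8% of H2-T23 occur in another gene, so that how the counting treated such reads could move counts between them. The H2 genes also differ between strains, and the counts assume the reference strain. Psmb8, Psmb9, Nlrc5 and B2m share no such window with another gene.

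Facts of the whole series bear on what follows. Total counts ranged from 41632000 to 52761900 per library, and the 10 genes together had 92877 to 182881 of them. The epithelial markers (Epcam, Vil1 and 8 others) were all detected and summed to between 15482 and 21157 CPM, counts scaled to the size of each library, in every library. The ribosomal RNA entry Rn18s-rs5 took 23.05% of the counts of baseline DKO replicate 1 and 8.46% of those of baseline DKO replicate 2, against 0.128% to 1.59% in the other 9 libraries. Without that entry the numbers of class I genes called were the same in all 5 comparisons. The deleted microRNAs had 0 counts in all libraries of either genotype, so that they do not check the genotype, and the host transcript Mir181a-1hg had 4 to 31 counts. Xist was between 6.75 and 14.5 CPM in the baseline libraries and between 633 and 906 in the DSS libraries, and the Y-linked Ddx3y was 42.6 to 54.9 and 0.162 to 0.895 CPM. Sex and DSS therefore cannot be told apart. Finally, the libraries differed in how a gene's deviation from its mean went with the GC share of its transcript. Across 18660 genes this correlation was 0.19 to 0.36 in the baseline libraries, -0.11, -0.42 and -0.41 in DSS WT replicates 1, 2 and 3, and 0.10, -0.10 and -0.25 in DSS DKO. B2m is GC-poor (41.2%, the 9.45th percentile of tested genes) and the other 9 genes are GC-rich (52.6% to 57.3%). The comparisons of the 10 genes, and the gene lists after DSS, are therefore given also with a correction for GC share, chosen after this pattern was seen.

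Set by length, the levels spanned more than 2 orders of magnitude. In baseline WT the mean CPM per kilobase of transcript was 528 for H2-K1, 459 for B2m, 330.3 for H2-D1 and 159 for H2-T23. It was 45.8 for Tapbp, 19.5 for Tap1, 18.6 for Psmb8 and 15.8 for Psmb9. Tap2 (6.93) and Nlrc5 (1.21) were lowest. In that order the ranges of the neighbours Tap1 and Psmb8, and of Psmb8 and Psmb9, overlapped, and those of the other neighbours did not. After DSS, Tapbp stood at 11.4 in WT and 14.4 in DKO, below Psmb8 at 35.7 and 19.4.

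The clearest difference lay between the genotypes after DSS. In DKO 6 of the 10 genes were lower than in WT and 0 were higher. Of all 19267 genes tested 5.98% were lower and 5.26% higher by the same rule, an adjusted p under 0.05 (edgeR's quasi-likelihood F-test, adjusted by Benjamini-Hochberg). The 6 were Nlrc5, Psmb9, Psmb8, Tap1, B2m and H2-K1. In each of these 6, every DSS DKO library lay below every DSS WT library, as did 17.9% of all genes tested. The median log2 fold change of the 10 genes was -0.52, beside 0.03 for all genes. The plot of CPM by library shows each value.

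**Figure D1:**
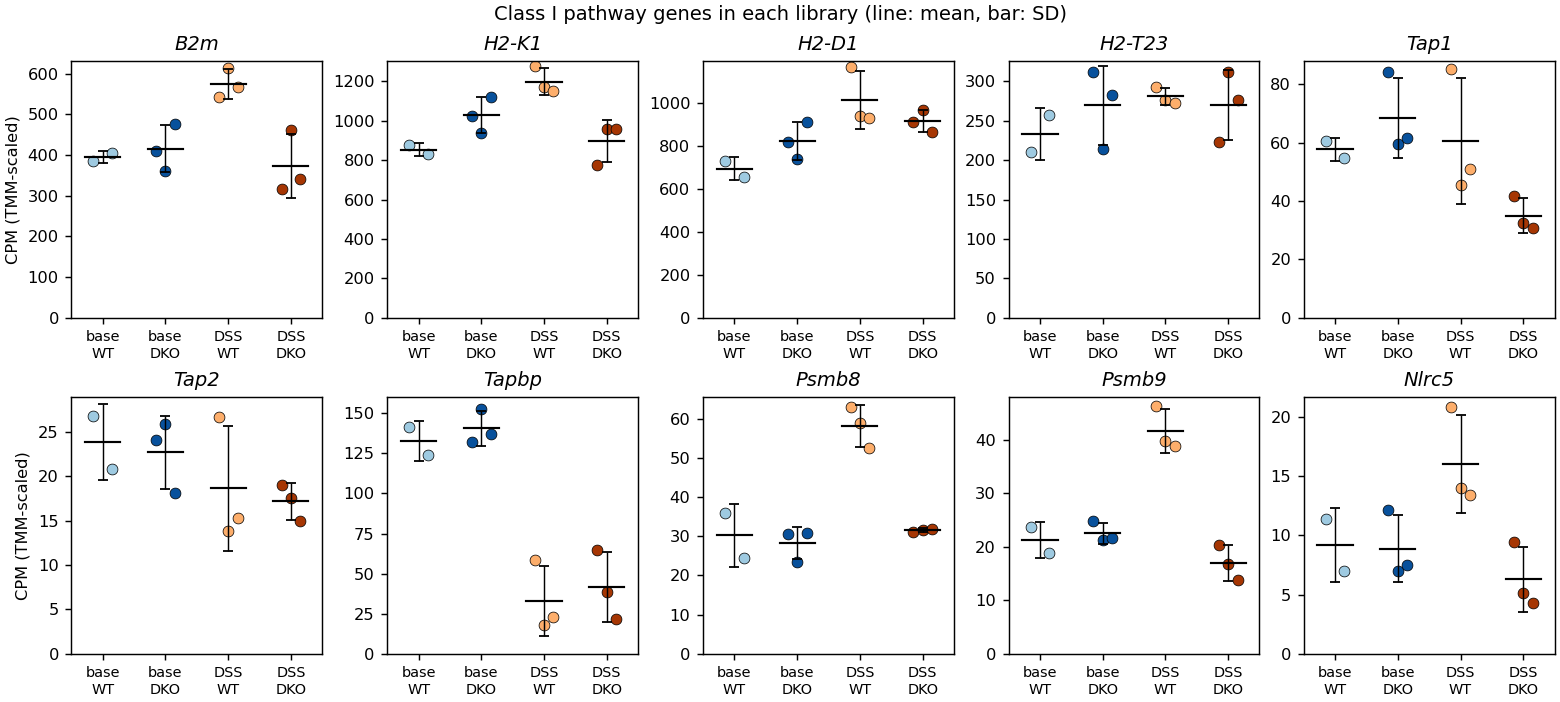
CPM (scaled by TMM) of the 10 class I pathway genes in each of the 11 libraries, 1 panel per gene, with the axis from 0. Points are libraries, lines group means and bars the SD, for baseline WT (n = 2) and baseline DKO, DSS WT and DSS DKO (n = 3 each). DSS WT stands above the other groups for B2m, H2-K1, Psmb8, Psmb9 and Nlrc5, and both DSS groups stand below baseline for Tapbp.

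Psmb9, a catalytic subunit of the immunoproteasome (also called LMP2), had 46.4, 39.9 and 38.8 CPM in the DSS WT libraries and 20.4, 16.8 and 13.8 in the DSS DKO libraries. The baseline libraries held 23.7 and 18.9 in WT and 24.8, 21.2 and 21.6 in DKO. DSS WT thus stood above every other library, while DSS DKO overlapped baseline WT. The fold change of DKO against WT after DSS was -1.30 ± 0.16 on the log2 scale (SE), 2.46-fold lower, with adjusted p = 0.000928.

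Psmb8, another catalytic subunit (LMP7), had 63.1, 58.8 and 52.6 CPM in DSS WT and 31.1, 31.6 and 32.0 in DSS DKO. At baseline it had 36.0 and 24.5 in WT and 30.5, 23.5 and 30.7 in DKO. DSS DKO lay within the baseline range, and no DSS WT library did. The log2 fold change after DSS was -0.88 ± 0.16 (SE), 1.84-fold lower, with adjusted p = 0.00518.

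Nlrc5 had 20.8, 14.0 and 13.4 CPM in DSS WT and 9.42, 5.16 and 4.26 in DSS DKO, from 729 to 1062 and from 188 to 509 counts. Baseline WT had 11.4 and 6.95 CPM, and baseline DKO 12.1, 6.95 and 7.53. The DSS WT libraries were the 3 highest of all 11. The log2 fold change after DSS was -1.35 ± 0.34 (SE), 2.55-fold lower, with adjusted p = 0.0269.

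Among the chains, B2m had 542, 615 and 568 CPM in DSS WT and 317, 462 and 340.2 in DSS DKO, against 385 and 405 in baseline WT and 409.8, 361 and 477 in baseline DKO. Its log2 fold change after DSS was -0.63 ± 0.15 (SE) with adjusted p = 0.0213. H2-K1, a classical heavy chain, had 1278, 1171 and 1149.6 CPM in DSS WT and 776, 959 and 961 in DSS DKO, a log2 fold change of -0.42 ± 0.12 (SE) with adjusted p = 0.0446. The difference in H2-K1 was 1.33-fold, the smallest of the 6.

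The other heavy chains did not pass the test. H2-D1 had 1169, 941 and 929 CPM in DSS WT and 911, 968 and 866 in DSS DKO, with a log2 fold change of -0.15 ± 0.13 (SE) and adjusted p = 0.497. H2-T23, which encodes the non-classical chain Qa-1, had 293, 277 and 273 CPM in DSS WT and 223, 312 and 277 in DSS DKO, at -0.05 ± 0.16 (SE) and adjusted p = 0.86. The groups overlapped for both genes. H2-K1 and H2-D1, the genes with a miR-181 seed match, were at -0.42 and -0.15 in DKO against WT after DSS. At baseline H2-K1 was at 0.27, and H2-D1 was between 0.16 and 0.33 with 1 library left out, and neither passed. The part of the seed matches in these values was not tested.

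Tap1 had 85.15, 45.4 and 50.8 CPM in DSS WT and 41.7, 32.4 and 30.9 in DSS DKO. Its log2 fold change was -0.79 ± 0.23 (SE), with adjusted p = 0.0497, so that it passed the threshold narrowly. DSS WT replicate 1 stood apart, and without it the value was -0.45 with adjusted p = 0.131. Tap2, the partner of Tap1 in the transporter, had 26.7, 13.9 and 15.3 CPM in DSS WT and 19.1, 17.6 and 15.0 in DSS DKO, at -0.11 ± 0.24 (SE) and adjusted p = 0.801. Tapbp had 58.3, 18.2 and 22.6 CPM in DSS WT and 64.5, 38.8 and 21.6 in DSS DKO, at 0.34 ± 0.46 (SE) and adjusted p = 0.694, with groups that overlapped over most of their range.

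Psmb8 and Psmb9 were called under all 19 alternative settings, and the other genes under fewer: B2m 14, Nlrc5 13, Tap1 8 and H2-K1 5. Each of these 4 turned on single libraries. The adjusted p of B2m was 0.102 without DSS WT replicate 2, 0.08205 without DSS WT replicate 3 and 0.05505 without DSS DKO replicate 3. That of Nlrc5 was between 0.0525 and 0.118 without any of the DSS libraries except DSS DKO replicate 1. Tap1 kept its call only without replicate 1 of baseline DKO, replicate 2 of DSS WT or replicate 1 of DSS DKO, and H2-K1 without baseline DKO replicate 3 or DSS DKO replicate 3. With the GC correction 4 of the 10 genes were lower, beside 5.43% of all genes. They were Tap1 (-0.99, adjusted p = 0.00266), Psmb8 (-1.05, 0.0031), Psmb9 (-1.47, 5.13e-05) and Nlrc5 (-1.39, 0.0156). B2m (-0.43) and H2-K1 (-0.59) had adjusted p of 0.0733 and 0.0577. With the correction and 1 DSS library left out at a time, Tap1, Psmb8 and Psmb9 were called in 6 of 6 fits and Nlrc5 in 5.

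**Figure D2:**
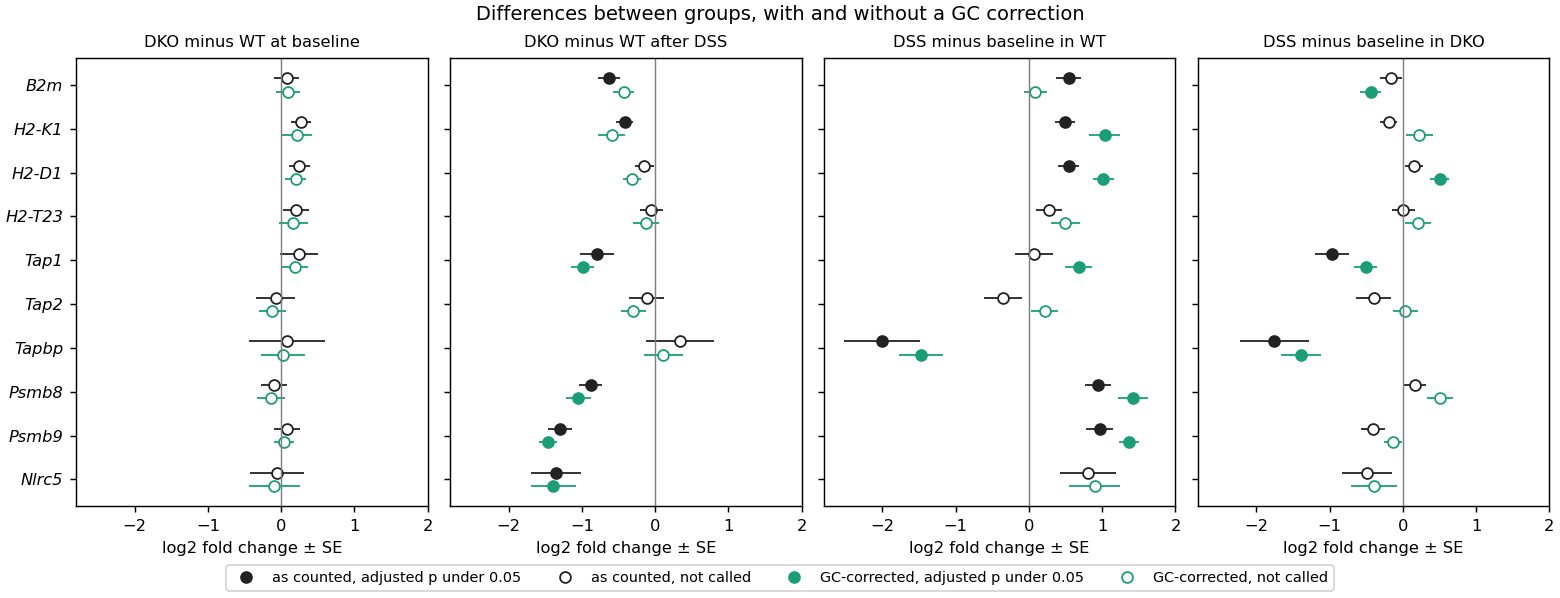
Log2 fold change ± SE of the 10 genes in 4 comparisons, with the counts as deposited (dark) and with the GC correction (green). Filled points passed an adjusted p of 0.05. After DSS the points of Tap1, Psmb8, Psmb9 and Nlrc5 are filled and below 0 with either fit, and at baseline every point is open.

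At baseline none of the 10 genes passed the test between DKO and WT. The count was 0 of 10 by edgeR, 0 at an unadjusted p under 0.05 and 0 by DESeq2, and all 10 adjusted p-values were 1. Of all genes 0.026% passed in either direction. Fold changes lay between -0.10 (Psmb8) and 0.27 (H2-K1) on the log2 scale, with SE of 0.13 to 0.52. With 2 and 3 libraries, and so few genes passing, a difference of moderate size could have gone undetected in any of the 10 genes. This limit was greatest for Tapbp and Nlrc5, whose SE were 0.52 and 0.37.

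Between DSS and baseline in WT, 5 genes were higher and 1 lower, beside 16.9% and 16.5% of all genes. The higher genes were Psmb9 (0.97 ± 0.18, SE, adjusted p = 0.00264), Psmb8 (0.94 ± 0.18, 0.00257), H2-D1 (0.55 ± 0.14, 0.0135), B2m (0.54 ± 0.17, 0.0295) and H2-K1 (0.49 ± 0.14, 0.0169). Psmb8 and Psmb9 were called under all 19 alternatives. Nlrc5 was at 0.81 ± 0.38 and did not pass (adjusted p = 0.121), although all 3 DSS WT libraries lay above both of baseline WT. Its value was 1.21 without baseline WT replicate 1 and 0.51 without baseline WT replicate 2. In H2-D1 every DSS WT library, at 929 to 1169 CPM, also exceeded baseline WT at 732 and 657. The same separation was seen in 31.9% of all genes tested. The baseline libraries all had the male and the DSS libraries all the female pattern of sex-linked genes, and the part of sex in these differences cannot be told apart from that of DSS.

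With the GC correction the changes in WT were larger for most GC-rich genes, and B2m no longer passed. Again 5 genes were higher (14.1% of all genes) and 1 lower (15.5%). Psmb8 stood at 1.42, Psmb9 at 1.37, H2-K1 at 1.03 and H2-D1 at 1.02, and Tap1, at 0.07 before the correction (adjusted p = 0.86), was at 0.68 with adjusted p = 0.0143. B2m went from 0.54 to 0.09, with adjusted p = 0.719. The calls of B2m (adjusted p up to 0.153), H2-K1 (up to 0.0785) and H2-D1 (0.0806) were also lost without baseline WT replicate 2, those of B2m and H2-K1 without baseline WT replicate 1, that of B2m without DSS WT replicate 2 or 3, and that of H2-K1 without DSS WT replicate 1. Without that library Tap2 was lower after DSS in WT (-0.73, adjusted p = 0.0216).

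In DKO, 2 of the 10 genes were lower after DSS than at baseline and 0 were higher, beside 11% and 12.6% of all genes. These were Tap1 (-0.97 ± 0.23, SE, adjusted p = 0.0124) and Tapbp (-1.76 ± 0.48, 0.0271). Psmb8 was at 0.16 and Psmb9 at -0.41, with adjusted p of 0.474 and 0.0826. None of the chains passed: B2m was at -0.16, H2-K1 at -0.20, H2-D1 at 0.15 and H2-T23 at 0.00. Without DSS DKO replicate 2, Tap1 had adjusted p = 0.0505 and Tapbp 0.079, and the count was 0. Without DSS DKO replicate 1, Psmb9 (-0.57, adjusted p = 0.02) and Nlrc5 (-0.91, 0.047) were lower too. With the GC correction 3 genes were lower (10.7% of all genes), Tapbp, Tap1 and B2m (-0.44, adjusted p = 0.0445), and H2-D1 was higher (0.50, 0.015, beside 12% of all genes).

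Tapbp moved downward with DSS in both genotypes. It had 141 and 124 CPM in baseline WT, 132, 153 and 137 in baseline DKO, and between 18.2 and 64.5 in the 6 DSS libraries, all of which lay below every baseline library. Of all genes tested, 31.6% had every DSS library below every baseline library in WT, and 19.6% in DKO. The fold change of DSS against baseline was -2.01 ± 0.51 in WT (SE, adjusted p = 0.0164) and -1.76 ± 0.48 in DKO. Within the DSS libraries the level differed with the relation of the library to GC share. The 3 libraries with the correlations of -0.42, -0.41 and -0.25 had 18.2, 22.6 and 21.6 CPM, and the 3 at -0.11, -0.10 and 0.10 had 58.3, 38.8 and 64.5. After the GC correction the difference was -1.47 in WT (adjusted p = 0.00436) and -1.39 in DKO (0.00457). Without the correction the call in WT was lost without either baseline WT library (adjusted p = 0.0884 and 0.0563) or DSS WT replicate 3 (0.0523), or with no filter on low counts (0.0603), and the call in DKO without baseline DKO replicate 2 (0.07575) or 3 (0.0523).

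**Figure D3:**
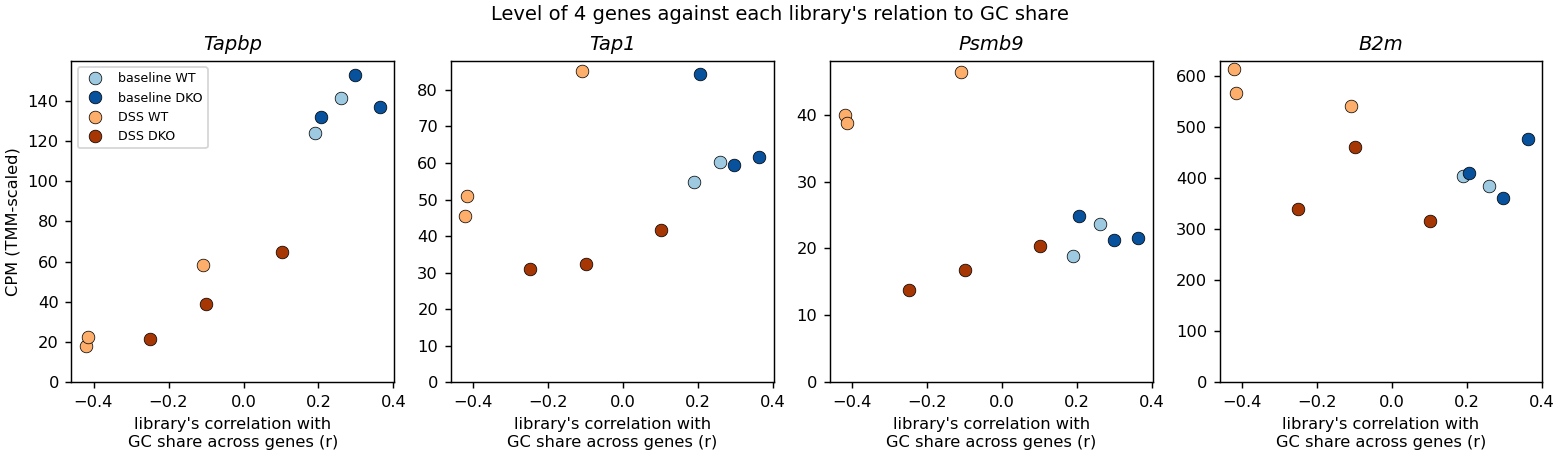
CPM of Tapbp, Tap1, Psmb9 and B2m (from 0) against the correlation, across 18660 genes, of each library's deviations with the GC share of the transcripts. Each point is 1 of the 11 libraries. Tapbp lies between 124 and 153 CPM in the baseline libraries, all at 0.19 or more, and between 18.2 and 64.5 in the DSS libraries, while for Psmb9 the 3 DSS WT libraries stand above the rest at correlations of -0.42 to -0.11.

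Whether the response to DSS differed between the genotypes was tested as an interaction. Sex changes with DSS in both genotypes, so that an interaction with DSS cannot be told apart from one with sex. Psmb9 alone passed among the 10 genes (-1.38 ± 0.24, SE, adjusted p = 0.0202), beside 0.794% of all genes lower and 0.773% higher. It rose by 0.97 in WT and was at -0.41 in DKO. The next were H2-K1 (-0.69, adjusted p = 0.0754), Psmb8 (-0.78, 0.103), B2m (-0.70, 0.127), Tap1 (-1.04, 0.142) and Nlrc5 (-1.30, 0.197), none of which passed. Without DSS DKO replicate 1 Nlrc5 passed (-1.71, adjusted p = 0.0378). The call of Psmb9 was made in 12 of 18 alternatives and lost (adjusted p between 0.053 and 0.08) when baseline WT replicate 1 or 2, baseline DKO replicate 1, replicate 2 or 3 of DSS WT, or replicate 2 of DSS DKO was left out. With the GC correction Psmb9 (-1.51, 0.00395) and Tap1 (-1.18, 0.026) were lower, beside 1.23% of all genes.

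Ratios within a library compare each immunoproteasome subunit with the constitutive subunit whose place it takes, and do not depend on how libraries are scaled. The ratio of Psmb9 to Psmb6 was 0.385, 0.322 and 0.319 in DSS WT and 0.208, 0.169 and 0.128 in DSS DKO. At baseline it was 0.373 and 0.26 in WT and 0.33, 0.33 and 0.212 in DKO. DSS WT lay in or just above the baseline range, and the DSS DKO libraries were the 3 lowest of the 11. The difference between the genotypes after DSS was -1.05 on the log2 scale, with every DKO library lower. An exact two-sided permutation test gave p = 0.1, the smallest that 3 libraries against 3 allow, and 0.3 after adjustment over the 6 ratio tests.

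For Psmb8 and Psmb5 the ratio was 1.19, 1.00 and 0.998 in DSS WT and 0.75, 0.807 and 0.747 in DSS DKO, a log2 difference of -0.47 with the same exact permutation p of 0.1 (0.3 adjusted). Psmb10 is the remaining inducible catalytic subunit, and its counterpart is Psmb7. That ratio was 1.21, 0.974 and 0.989 in DSS WT and 1.10, 1.10 and 0.964 in DSS DKO, a log2 difference of -0.0017 with groups that overlapped (exact permutation p of 1). At baseline the groups overlapped for all 3 ratios (differences of -0.35, -0.13 and -0.10, exact permutation p of 0.4, 0.7 and 0.4). In Psmb5, 57.1% of the windows of 50 bases occur in another gene, and Psmb7 shares 34.9% of its exonic bases with Nek6, so that both levels are uncertain. A ratio also carries the GC relation where its genes differ in GC share, as Psmb10 (56.5%) and Psmb7 (48.7%) do. Corrected for GC share, Psmb10 was at -0.49 after DSS (adjusted p = 0.0405) and Psmb7 at -0.24 (0.272).

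**Figure D4:**
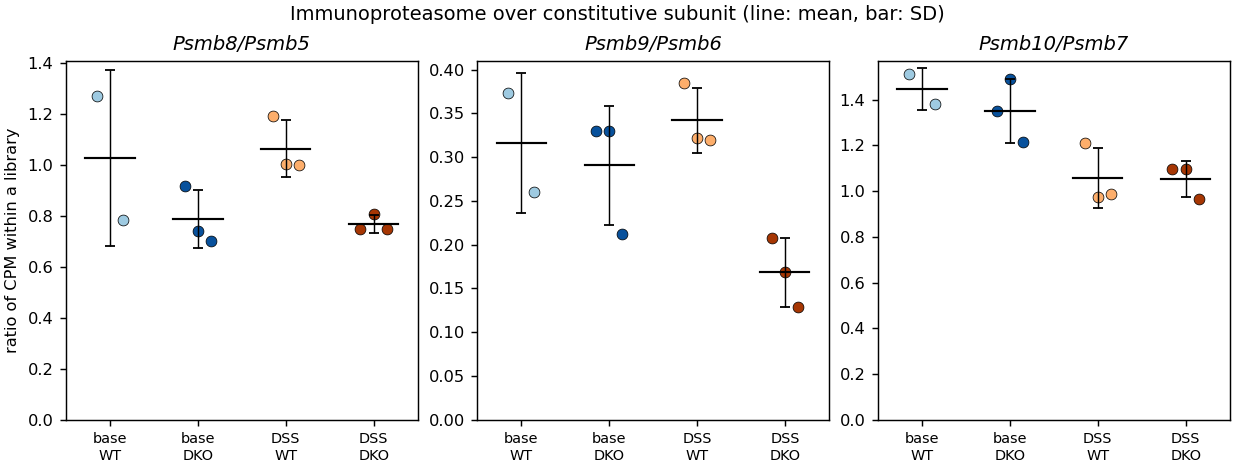
Ratio of CPM of an immunoproteasome subunit to its constitutive counterpart in each library (axis from 0), with group means (lines) and SD (bars), n = 2 for baseline WT and 3 for each other group. DSS DKO lies below DSS WT for Psmb8/Psmb5 and Psmb9/Psmb6 and overlaps it for Psmb10/Psmb7.

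Of 14 constitutive proteasome genes, 2 were lower after DSS when DKO was set against WT, beside 5.98% of all genes. They were Psma1 (-0.57 ± 0.12, SE) and Psma4 (-0.41 ± 0.12), and the median of the 14 was -0.26. Psmb5, Psmb6 and Psmb7 were at -0.41, -0.26 and -0.28 with adjusted p of 0.0634, 0.276 and 0.229, and Psmb10 was at -0.28 (0.119). After correction for GC share 1 of the 14 was lower, Psma1 (-0.44), and Psma4 no longer passed (-0.30, adjusted p = 0.103). In WT 13 of the 14 rose after DSS, with a median of 0.85, beside 16.9% of all genes. In DKO 4 rose, with a median of 0.33, beside 12.6% of all genes. Psmb8 and Psmb9, at 0.94 and 0.97 in WT, stood close to that median of 0.85 without the GC correction. With it the median was 0.74, and the corrected values of Psmb8 and Psmb9 given above stood further from it.

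Of 12 other genes of peptide loading and trimming, 7 were lower in DKO after DSS and 0 higher, beside 5.98% and 5.26% of all genes. Their median was -0.44. The lower genes included Psme2 (-0.74 ± 0.14, SE), a subunit of the PA28 activator of the proteasome, Pdia3 (-0.59 ± 0.11) and Calr (-0.60 ± 0.12), an oxidoreductase and a chaperone of the peptide-loading complex, and Canx (-0.51 ± 0.10), a chaperone of new heavy chains. The peptide-trimming enzyme Erap1 (-0.51 ± 0.11) was also lower. Psme1, the partner of Psme2, stood at 109, 121 and 106 CPM in DSS WT and 96.0, 109 and 95.8 in DSS DKO (adjusted p = 0.368). Again 7 of the 12 were lower with the GC correction, with Psmb10 gained and Ide lost (-0.45, adjusted p = 0.0787). In WT 10 of the 12 were higher after DSS than at baseline, and in DKO 3, beside 16.9% and 12.6% of all genes. Calr, Canx, Pdia3 and Uggt1 also serve the folding of glycoproteins in general.

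Of 17 further class I and class I-like chains tested, 3 were lower in DKO after DSS and 2 higher, beside 5.98% and 5.26% of all genes. The lower ones were H2-Q10 (-2.31 ± 0.27, SE), H2-Q7 (-1.52 ± 0.25) and H2-Q6 (-1.12 ± 0.26), chains of the Qa region. H2-Q7 had 24.1, 17.5 and 16.6 CPM in DSS WT and 6.90, 8.06 and 5.35 in DSS DKO. Fcgrt (0.99 ± 0.17), the neonatal Fc receptor, and Hfe (0.73 ± 0.17), a regulator of iron uptake, were higher. Of the 17, 3 were lower and 1 higher with the GC correction (5.89% of all genes were higher), and Fcgrt did not pass (0.84, adjusted p = 0.0563). Fcgrt and Hfe encode class I-like proteins that pair with B2m and present no peptide. The Q genes share long stretches with one another, so that the split of counts between them is uncertain.

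Upstream of the class I genes, 26 genes of class I transcription and interferon signalling were examined. In DKO after DSS 5 were lower and 2 higher, beside 5.98% and 5.26% of all genes, so that the higher ones were near that share. Examples of the lower genes were Irf1, an interferon-inducible transcription factor, at -0.67 ± 0.12 (SE, adjusted p = 0.00467), Creb1 at -0.59 ± 0.11 and Irf9 at -0.58 ± 0.12. Rfx5, which binds class I and class II promoters, was at 0.07 ± 0.15 (adjusted p = 0.799), and the inhibitor Socs1 at -0.26 ± 0.38 (0.705). Ifngr1, a chain of the interferon-gamma receptor, was higher (0.42 ± 0.12), and so was the inhibitor Socs3 (2.09 ± 0.54). Socs3 had 51.5, 30.0 and 8.01 CPM in DSS DKO and 8.68, 7.20 and 5.12 in DSS WT, so that 1 DKO library lay within the WT range. The GC correction left 4 of the 26 lower and 2 higher, and Creb1 did not pass (-0.37, adjusted p = 0.0897).

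Of 7 interferon and interferon-inducing ligands 2 had enough counts to be tested. Ifng had 30, 45 and 19 counts in DSS WT, 0, 8 and 0 in DSS DKO, and 0 to 10 in the baseline libraries. Its log2 fold change of -3.39 ± 1.09 (SE) did not pass over all genes (adjusted p = 0.0679). Il18, an inducer of interferon-gamma that epithelial cells make, was higher in DSS DKO (0.80 ± 0.12, SE).

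Markers of T cells, intraepithelial lymphocytes and natural killer cells were lower in DKO after DSS as well, although the preparation was meant to remove lymphocytes. Of 20 such markers 13 were lower and 0 higher, beside 5.98% and 5.26% of all genes. Their median was -1.22, and 0 of the 20 were at 0 in every library of a group. Their summed level was 194 to 214 CPM in DSS WT, 63.6 to 117 in DSS DKO, 47.4 to 78.3 in baseline WT and 49.0 to 66.2 in baseline DKO. Gzma (-1.79 ± 0.37, SE), Nkg7 (-1.70 ± 0.35), Trac (-1.60 ± 0.35) and Itgae (-1.22 ± 0.27) were examples. The class I genes are expressed in lymphocytes too, and the part of lymphocyte RNA in the differences of Psmb8, Psmb9, Nlrc5 and B2m was not tested. In bulk RNA, fewer cells of a type and less RNA per cell cannot be told apart.

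Of 8 neutrophil markers 5 were higher in DKO after DSS, among them Mmp8 (2.83), Retnlg (2.12), Ly6g (2.10) and S100a8 (1.66). The other 3 did not pass, and 7 of the 8 had a fold change above 0. Csf3r had a mean of 1.57 CPM in DSS WT and 1.25 in DSS DKO. The summed level was 51.4 to 57.6 CPM in DSS WT and 158 to 225 in DSS DKO, of which Ly6g had means of 30.4 and 130.6. Of 9 stromal and endothelial markers 3 were higher (Pdgfra, Dcn and Col3a1) and 0 lower. Only 4 of the 9 had a fold change above 0, with a median of -0.12, and Col1a1 had a mean of 178 CPM in DSS WT and 132 in DSS DKO. Of 11 macrophage and dendritic cell markers 1 was lower, Cd14, while 6 had a fold change above 0 and the median was 0.13. Of all genes 5.98% were lower and 5.26% higher in this comparison. Among 7 B and plasma cell markers 0 passed by edgeR or DESeq2 and 1 was lower at an unadjusted p under 0.05. Among 10 epithelial markers 0 passed by edgeR, 1 was lower at an unadjusted p under 0.05 and 1 was lower by DESeq2. When GC share was corrected for, 14 lymphocyte markers were lower, and 1 epithelial marker, Krt8, was lower (-0.49, adjusted p = 0.0498), while the other counts of markers were as without it. The part of these in the class I results was not tested.

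**Figure D5:**
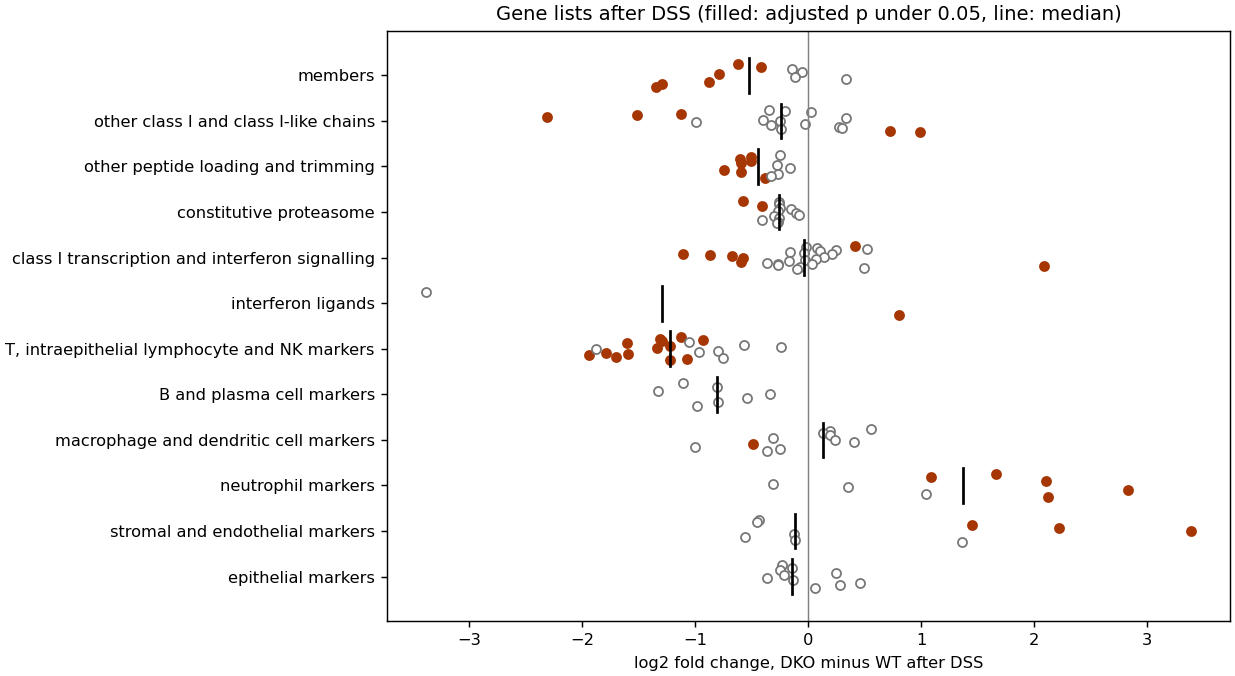
Log2 fold change of DKO against WT after DSS for every tested gene of 12 lists, 1 row per list. Filled points passed an adjusted p of 0.05 and lines are list medians. The class I genes and the lymphocyte markers lie mostly below 0, with medians of -0.52 and -1.22, and the neutrophil markers mostly above 0.

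Within the set, the genes did not share a single pattern over the 11 libraries. The Pearson correlation of a gene's log2 CPM with the mean of the other 9 was 0.84 for Psmb9, 0.81 for Nlrc5, 0.76 for H2-K1, 0.66 for B2m, 0.65 for Psmb8 and 0.62 for Tap1. It was 0.47 for H2-D1, 0.26 for H2-T23, 0.09 for Tap2 and -0.19 for Tapbp. These are descriptions over libraries that share their groups. Outside the set, the 10 genes with the profile most like the mean of the members, with r from 0.86 to 0.90 over the 11 libraries, were Gm4841, H2-Q7, Tppp, Igtp, Tgtp2, Bst2, Gm8714, Aadac, H2-Q6 and Tbc1d31. Igtp and Tgtp2 are interferon-inducible GTPases and Bst2 an interferon-inducible antiviral membrane protein. Igtp had 36.9 ± 7.92 CPM in DSS WT (SD, n = 3) and 11.5 ± 3.46 in DSS DKO (n = 3), against 18.7 ± 1.88 in baseline WT (n = 2) and 21.0 ± 3.51 in baseline DKO (n = 3). Most like Nlrc5 were Gm4841 (0.95), Gbp2, Psmb9 and Apol10c-ps (0.93 each) and Apol7e, again with Gbp2 an interferon-inducible GTPase.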

How the data were processed

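The authors deposited 1 table of raw read counts per gene for the 11 libraries (oligo-dT enrichment, per the labels' protocols), with reads aligned by STAR to mm10, per the submitters' processing notes. Of the counting, neither the tool nor the annotation nor the strand setting is stated in the labels. Counts were scaled by TMM, filtered with filterByExpr (minimum count 10) and fitted in edgeR 4.0.16 (R 4.3.3) with 1 mean per group over all 11 libraries. Robust quasi-likelihood F-tests were adjusted by Benjamini-Hochberg over all 19267 genes tested, with a threshold of 0.05. Log2 CPM used a prior count of 2, and ratios the exact permutation test over libraries. DESeq2 1.42.0 and other settings were alternatives. The scripts were tested on simulated data.

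The members and lists were chosen with earlier results of these data known. Named genes were all members, Psmb5, Psmb6, Psmb7, Psmb10, Ifng, Irf1, Rfx5 and Socs1, up to 4 called genes per other list with the lowest p after DSS, and the 10 and 5 genes most like the members and Nlrc5. Psme1, Erap1, Uggt1, Ifngr1, Socs3 and others outside that rule were named after their values were seen. The GC correction (a spline with 5 degrees of freedom per library) was also chosen after the data were seen. No pair of libraries in a group had counts that agreed within sampling noise. A result for 1 gene that the rule names is not reported here.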

Additional observations from a re-analysis of the deposited data

Results flagged for a closer look

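Psmb9 was the only member of the class I set whose response to DSS differed between the genotypes by a test of that difference in the fit reported. Sex and DSS cannot be told apart in this test. The interaction was -1.375 on the log2 scale with adjusted p = 0.0202 by edgeR's quasi-likelihood test, from a fold change of 0.97 in WT and -0.41 in DKO. This call was made in 12 of 18 alternatives. With the GC correction Tap1 passed as well (-1.185, adjusted p = 0.026 by the same test). All groups held 2 or 3 libraries, so that no group was large enough to be searched for single outlying values.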

How the results depend on the processing

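Calls of the DKO against WT comparison after DSS numbered 3 of 10 with only the groups compared (1372 of all genes) and 2 with a minimum fold of 1.2 (1058, against 2165 in the fit reported), and 2 to 5 with 1 library left out. For DSS against baseline in WT they numbered 2 to 6 with 1 library left out. In DKO they were 1 with no filter (3774 of all genes), 4 with the replicate block (5290), 4 with the GC correction (4369, against 4545 in the fit reported) and 0 to 4 with 1 library left out. For the interaction they were 3 by DESeq2 (1259 of all genes), 2 with no filter (516), 3 with the replicate block (318), 2 with the GC correction (516, against 302 in the fit reported) and 0 to 2 with 1 library left out. For the fits with 1 library left out, the share over all genes is not given. The cause of these changes in the counts was not tested. Over all groups the replicate numbers did not clearly pair the libraries: 15 same-numbered pairs had correlations of -0.0705 to 0.302, 4 of them over 0.1. Between DSS WT and DSS DKO the same-numbered pairs were at 0.302, 0.0194 and 0.201, and the others ranged from -0.303 to 0.157. Whether the DSS libraries were paired cannot be decided from so few pairs. The replicate block also turned Tap2 (0.0638) and Nlrc5 (0.0982) at baseline, and Nlrc5 passed with it for DSS against baseline in WT (0.97, adjusted p = 0.003984). The GC correction turned Tap2 for DSS against baseline in WT (0.2138) and in DKO (0.03446), and H2-K1 in DKO (0.2229). H2-T23 in DKO, at 0.00, was -0.0027 with DESeq2 size factors, -0.0013 by DESeq2, -0.01051 with no filter, -0.0164 without the ribosomal RNA entry and -0.03089 with only the groups compared. With 1 library left out, values that crossed 0 ranged as follows. For DKO against WT after DSS, H2-T23 ranged from -0.1679 to 0.06672, Tap2 from -0.2917 to 0.25, Tapbp from -0.1315 to 1.042 and the log2 ratio Psmb10/Psmb7 from -0.05752 to 0.09861. At baseline B2m ranged from -0.03626 to 0.1664, Tap2 from -0.2281 to 0.1242, Psmb8 from -0.333 to 0.2035, Psmb9 from -0.0599 to 0.251, Nlrc5 from -0.3525 to 0.3456 and the log2 ratio Psmb9/Psmb6 from -0.3902 to 0.1302. For DSS against baseline, Tap1 in WT ranged from -0.2774 to 0.2453 and H2-T23 in DKO from -0.1368 to 0.1275. In the interaction, Tap2 ranged from -0.2381 to 0.3211 and Tapbp from -0.2144 to 0.9588. None of these values passed the test in the fit with all libraries. The lowest count of a class I gene in any library was 188, for Nlrc5, so that sampling noise weighs more on Nlrc5 than on the other members. The SD of Nlrc5 within a group was 25.7% to 43.8% of its mean.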
